A study of Homo sapiens with 19 samples.

Results

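The expression of 10 genes of squamous epithelium was followed through human liver organoids: the S100 genes S100A2, S100A7, S100A8, S100A9 and S100A14, the small proline-rich genes SPRR1A, SPRR1B and SPRR3, sciellin (SCEL) and stratifin (SFN). They were selected on their summed expression in these same libraries, with the day 34 against day 21 difference and the difference of each treatment from its control in view, and were matched by Ensembl identifier. They make up 10 of the 32703 gene identifiers shared by every count matrix. Since those measured levels and differences chose them, their levels and fold changes are given as a description with no test. SFN is a 14-3-3 protein and belongs to neither named family, and S100A14 is expressed more widely than the rest.

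All 19 libraries came from wild-type organoids grown from W01, a pluripotent stem cell line supplied by WiCell, and single cells were profiled with the 10x Genomics 3′ v3 chemistry, per the labels. Organoids in ULA culture were taken on day 21 (n = 3) and on day 34 (n = 2). OS organoids were taken on day 25 as 7 groups of 2: an untreated group, 3 treated groups (10 ng/ml of TGFB1, 500 µM of PA, 500 µM of OA) and a separate control group for each treatment. The labels state 20 days of culture and then 5 days of treatment for TGFB1 and PA, while OA is given only in titles and sample characteristics, and neither PA nor OA is spelled out. Day 34 ULA and OS organoids received another wash and 10 further minutes of trypsin before capture. Nothing in the labels says whether replicates came from separate cultures, so the spread between replicates may be technical.

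S100 proteins are small calcium-binding proteins. S100A8 and S100A9 pair to form calprotectin, which is abundant in neutrophils and monocytes and is also made by stressed or barrier-forming epithelia, and S100A7 (psoriasin) is an antimicrobial protein of the skin. Small proline-rich proteins and sciellin are cross-linked by transglutaminases into the cornified envelope, the protein shell under the membrane of terminally differentiated squamous cells. Hepatocytes do not build that envelope.

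Of the 10 genes, 8 lie within 0.633 Mb of chromosome 1, between SPRR1A (chr1:152984081-152985814, plus strand) and S100A14 (chr1:153614255-153616986, minus strand), in the region known as the epidermal differentiation complex. SFN lies elsewhere on chromosome 1 (chr1:26863149-26864456, plus strand) and SCEL on chromosome 13 (chr13:77535674-77645263, plus strand). Positions are from GENCODE v44 on GRCh38, the build named in the submitters' processing notes. The 180 bases before the start site are shown for the 4 envelope genes and for S100A2, S100A8 and S100A9, as the SPRR family, the other envelope gene and 3 S100 genes with large differences on day 34. They are RefSeq sequences on GRCh38.p14, written 5′ to 3′ on the gene's strand, with AP-1 matches (TGANTCA) and TATA box matches (TATAAA) in capitals. They span chr1:152983901-152984080 (SPRR1A), chr1:153031023-153031202 (SPRR1B), chr1:153001569-153001748 (SPRR3) and chr13:77535526-77535705 (SCEL), and chr1:153565845-153566024 (S100A2), chr1:153391074-153391253 (S100A8) and chr1:153357674-153357853 (S100A9). RefSeq lists 2 starts for S100A2 and 3 for S100A8, and 1 is shown for each; that of S100A2 lies within the GENCODE gene.
SPRR1A: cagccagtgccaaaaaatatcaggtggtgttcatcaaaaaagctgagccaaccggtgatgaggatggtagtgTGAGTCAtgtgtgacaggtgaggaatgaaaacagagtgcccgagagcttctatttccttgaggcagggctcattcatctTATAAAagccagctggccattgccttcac
SPRR1B: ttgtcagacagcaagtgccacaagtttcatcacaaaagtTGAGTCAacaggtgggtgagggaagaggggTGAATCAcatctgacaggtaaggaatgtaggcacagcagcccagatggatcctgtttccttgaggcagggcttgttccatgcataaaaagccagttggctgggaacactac
SPRR3: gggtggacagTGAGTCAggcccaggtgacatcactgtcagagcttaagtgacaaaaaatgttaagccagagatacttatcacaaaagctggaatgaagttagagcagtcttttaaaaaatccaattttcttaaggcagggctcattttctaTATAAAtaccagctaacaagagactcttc
SCEL: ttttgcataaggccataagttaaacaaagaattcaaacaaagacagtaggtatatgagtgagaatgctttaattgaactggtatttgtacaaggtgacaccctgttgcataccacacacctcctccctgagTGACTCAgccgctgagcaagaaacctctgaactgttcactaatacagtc
S100A2: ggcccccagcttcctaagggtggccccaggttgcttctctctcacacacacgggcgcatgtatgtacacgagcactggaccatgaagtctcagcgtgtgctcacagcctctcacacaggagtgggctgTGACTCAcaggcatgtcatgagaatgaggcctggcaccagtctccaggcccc
S100A8: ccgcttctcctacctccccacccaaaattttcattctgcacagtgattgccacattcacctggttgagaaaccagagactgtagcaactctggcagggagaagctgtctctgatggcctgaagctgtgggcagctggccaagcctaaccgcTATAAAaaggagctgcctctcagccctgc
S100A9: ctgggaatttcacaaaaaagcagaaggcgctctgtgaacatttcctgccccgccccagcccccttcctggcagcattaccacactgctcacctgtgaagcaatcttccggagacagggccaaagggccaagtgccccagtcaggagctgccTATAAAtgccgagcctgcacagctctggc

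Over the whole 300-base window (250 bases before to 50 after the start), read on both strands, TGANTCA occurred in 6 of the 10 genes (SPRR1A, SPRR1B, SPRR3, SCEL, S100A2 and SFN) and in 7.71% of all 35116 RefSeq promoters of that length. TATAAA occurred in 5 of the 10 (SPRR1A, SPRR3, S100A7, S100A8 and S100A9), against 11.5% of all promoters. AACNGGTT, the grainyhead motif, occurred in S100A9 alone of the 10, against 1.73%. A match describes the letters only. N stands for any base: SFN matched TGANTCA only as TGATTCA, and 1 of the 2 SPRR1B matches was TGAATCA. The other TGANTCA matches read TGAGTCA or TGACTCA. Not all of the genes are independent in sequence. After alignment of the 250 bases before the start, pairs not made of SPRR genes alone ran from 42.7% (S100A9 and SPRR3) to 63.2% identity (S100A8 and S100A9). SPRR3 lay above that range with SPRR1A (65.5%) and with SPRR1B (65.9%). SPRR1A and SPRR1B were highest, at 69.7% (163 of 234 aligned bases). Their transcripts also share letters near the 3′ end, where this chemistry reads: 10.4% of 50-base words in the last 500 bases of SPRR1A and of SPRR1B occur in the other gene, and 17.6% of those of S100A7 occur in S100A7A. Counts of these 3 genes can therefore be split or lost between the copies. The other 7 genes had 0 such words.

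Libraries held 3089 to 12427 kept cells (at least 500 genes and at most 20% mitochondrial counts) and 6880807 to 91184130 UMIs in those cells. Levels are given as CPM, the gene's UMIs summed over kept cells and scaled to the library's total. CPM in summed libraries cannot tell fewer cells of a type from less RNA per cell. ULA and OS matrices list different gene sets, so levels set across them were not tested. The ULA day 34 replicates stand apart from each other: their cells fell largely into different clusters, as described with the clusters. So do the TGFB1 control replicates, at median depths of 1310 and 5635 UMIs per cell. Unnamed cluster 0 of that experiment held 60.9% and 2.56% of their cells, and unnamed cluster 3 held 2.87% and 62.3%. Any 2 libraries shared at most 32 cell barcodes.

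The 10 genes together made up 184 to 339 CPM on ULA day 21 and 1196 and 1829 CPM on day 34. In OS organoids TGFB1 libraries held 342 and 305 CPM against 217 and 255 CPM in their controls, and PA libraries 547 and 824 CPM against 325 and 458 CPM. OA libraries held 896 and 714 CPM against 379 and 496 CPM, and the untreated ones 365 and 319 CPM. Single genes carry much of these sums: S100A14 made up 68.1% to 69.1% of them on day 21, 95.3% and 95.5% in the TGFB1 control and 65.8% and 80.1% with OA, and S100A9 made up 52.5% in day 34 replicate 1. S100A2, S100A14 and SFN were above 1 CPM in every library, whereas SPRR1A reached 15 UMIs in 1 library and 0 in others.

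**Figure D1:**
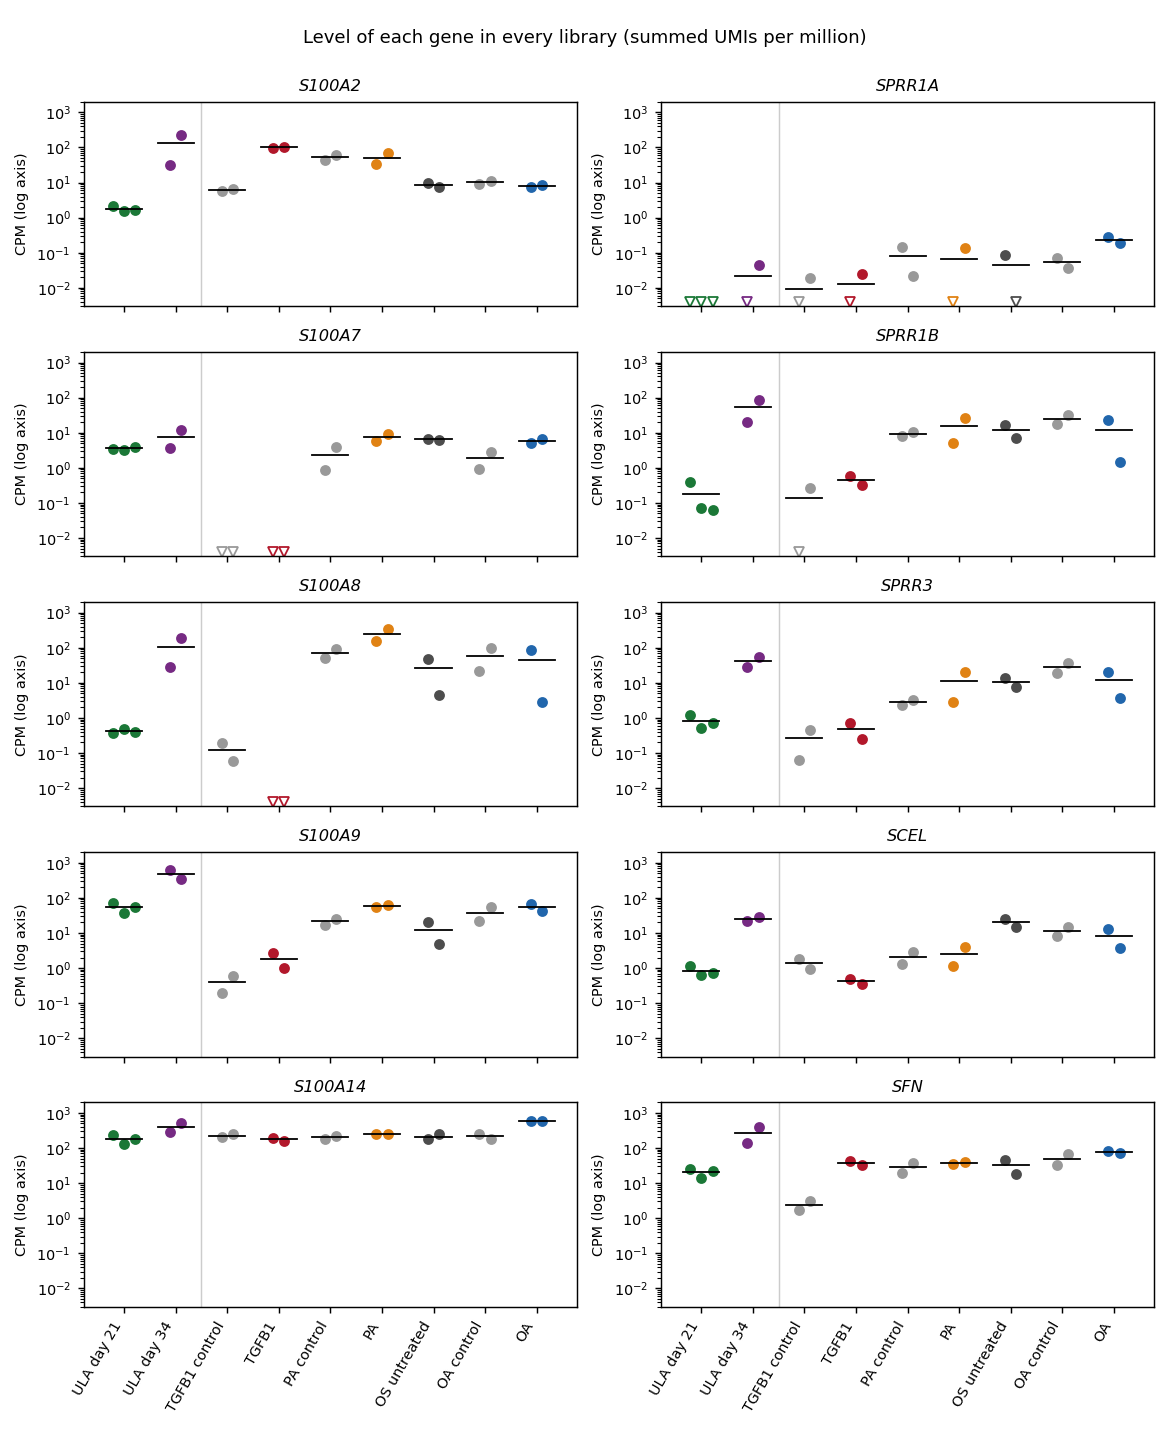
Level of each of the 10 genes in every library, in CPM of summed UMIs on a log axis, with 1 point per library, a bar at the group mean, and open triangles for libraries at 0. S100A14 stays between 127 and 590 CPM in all libraries, while S100A8 runs from 0 with TGFB1 to 345 CPM with PA, and the grey line parts ULA from OS groups.

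The calprotectin genes S100A8 and S100A9 were higher on ULA day 34 and with PA, and were nearly absent from the TGFB1 experiment. S100A8 was at 0.362, 0.499 and 0.402 CPM in the 3 day 21 libraries and at 28.7 and 186 CPM in the 2 day 34 libraries. Its mean ratio was 255 and its log2 fold change 7.87 (SE 0.805), from 5.95 to 8.67 over the alternative fits described with the processing. Day 34 libraries differed from each other by more than the day 21 libraries did, yet both lay far above them. In OS organoids S100A8 was at 49.6 and 92.9 CPM in the PA control and at 153 and 345 CPM with PA, a log2 fold change of 1.87 (SE 1.19). The PA libraries did not overlap their controls. The OA control held 21.9 and 97.3 CPM, OA held 87.6 and 2.89 CPM, and the untreated group held 49 and 4.49 CPM. The ranges of these 3 groups overlap, and OA replicate 2 was the lowest of the 6 libraries. In the TGFB1 experiment S100A8 had 3 UMIs in each control library and 0 in both TGFB1 libraries, at or under the floor of 3 UMIs per library, so no fold is given.

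S100A9 was at 70.4, 36.6 and 55.0 CPM on day 21 and at 628 and 338 CPM on day 34, with a log2 fold change of 3.03 (SE 0.341). Unlike S100A8, it was higher in day 34 replicate 1 than in replicate 2. In OS organoids PA libraries held 55.4 and 61.8 CPM against 17.0 and 25.8 CPM in their controls, a log2 fold change of 1.5 (SE 0.563). OA control libraries held 22.2 and 53.8 CPM and OA libraries 67.1 and 43.3 CPM, which overlap. The untreated libraries held 20.0 and 4.76 CPM. TGFB1 control libraries held 0.190 and 0.612 CPM and TGFB1 libraries 2.63 and 1.02 CPM. These lie apart, but at levels under those of every other group, and TGFB1 control replicate 1 held 3 UMIs.

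S100A7 was a minor transcript, from 0.872 to 11.8 CPM outside the TGFB1 experiment. On day 21 its libraries held 3.49, 3.32 and 3.94 CPM and on day 34 3.67 and 11.8 CPM, which overlap. With PA it was at 5.84 and 9.25 CPM against 0.872 and 3.82 CPM in the control, and with OA at 5.07 and 6.56 CPM against 0.931 and 2.88 CPM. Both treated groups lay above their own control, and both ranges overlapped that of the untreated libraries (6.83 and 6.34 CPM). With stricter cells (1000 genes, 10% mitochondrial) the PA range overlapped that of its control. All 4 libraries of the TGFB1 experiment held 0 UMIs of S100A7, which allows up to 0.0574 to 0.190 CPM per library at 3 UMIs.

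S100A2, an S100 protein of basal squamous cells and a known p63 target, had its own pattern. It was at 2.14, 1.54 and 1.63 CPM on day 21 and at 32.6 and 230 CPM on day 34. Its log2 fold change was 6.09 (SE 0.757), from 4.05 to 6.90 over the alternative fits. It was at 5.75 and 6.71 CPM in the TGFB1 control and at 96.8 and 106 CPM with TGFB1, a log2 fold change of 4.19 (SE 0.305), with a narrow spread in both groups. PA did not separate from its control for this gene: 34.9 and 68.6 CPM against 44.5 and 62.1 CPM. The untreated, OA control and OA libraries all lay between 7.59 and 10.8 CPM. S100A2 in OA shows how the scaling matters for a small difference: its mean CPM was 8.21 against 10.1 in the control, while the TMM-scaled log2 fold change was 0.04 (SE 0.27).

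S100A14, an S100 protein of many simple and stratified epithelia, was at 234, 127 and 180 CPM on day 21 and at 290 and 509 CPM on day 34. In OS organoids 12 of 14 libraries lay between 163 and 254 CPM. Both OA libraries, at 590 and 572 CPM, lay above the OA control (245 and 182 CPM), with a log2 fold change of 1.77 (SE 0.268). With TGFB1 it was at 198 and 163 CPM against 207 and 243 CPM, and with PA at 254 and 251 CPM against 181 and 218 CPM.

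Among the envelope genes, SPRR1B was at 0.396 CPM or less in all 3 day 21 libraries and at 20.8 and 84.1 CPM on day 34, a log2 fold change of 8.03 (SE 0.855). SPRR3 was at 0.529 to 1.20 CPM on day 21 and at 28.8 and 54.9 CPM on day 34, with a log2 fold change of 5.54 (SE 0.406). SCEL was at 0.617 to 1.12 CPM on day 21 and at 22.5 and 28.6 CPM on day 34, with a log2 fold change of 4.82 (SE 0.284). Every day 34 library lay above every day 21 library for these 3 genes. SPRR1A was never above 0.277 CPM, with 4 UMIs in day 34 replicate 2 and 0 in the other ULA libraries, and it did not pass the filter on low counts in any comparison.

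The same envelope genes varied widely between OS replicates. PA libraries held 5.21 and 25.6 CPM of SPRR1B against 8.14 and 10.7 CPM in their controls, and OA libraries 22.5 and 1.42 CPM against 18.2 and 31.1 CPM. SPRR3 was at 3.24 CPM or less in the PA control libraries and at 2.81 and 19.8 CPM with PA, while OA libraries held 20.2 and 3.75 CPM against 19.7 and 36.6 CPM in their controls. For SCEL, OA libraries held 13 and 3.64 CPM against 8.38 and 15 CPM, and its mean was highest of the OS groups in the untreated one, at 25.2 and 14.8 CPM. Treated and control ranges overlapped for each of these genes with PA and with OA. In the TGFB1 experiment SPRR1B and SPRR3 stayed under 1 CPM, and SCEL was at 1.77 and 0.956 CPM in the control against 0.5 and 0.357 CPM with TGFB1.

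SFN, the 14-3-3 sigma protein that p53 induces and squamous cells express, was at 25.8, 13.6 and 21.9 CPM on day 21 and at 141 and 386 CPM on day 34, a log2 fold change of 3.57 (SE 0.442). It was at 1.77 and 3.00 CPM in the TGFB1 control and at 43.4 and 33.5 CPM with TGFB1, a log2 fold change of 4.11 (SE 0.457). TGFB1 libraries of SFN and S100A2 were thus both about 16-fold above the control by mean CPM, with ratios of 16.1 and 16.3. OA libraries held 82.9 and 71.7 CPM of SFN against 33.6 and 66.7 CPM, and PA libraries 35.0 and 39.1 CPM against 19.8 and 37.9 CPM.

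Across the 9 groups the highest mean belonged to ULA day 34 for S100A2, S100A7, S100A9, SPRR1B, SPRR3, SCEL and SFN, to PA for S100A8 and to OA for S100A14 and SPRR1A. For S100A9 and SFN the day 34 range lay apart from the next group in the order, whereas for S100A2, S100A7, SPRR1B, SPRR3 and SCEL it overlapped the next group, which was TGFB1, PA, the OA control, the OA control and the untreated group in that order. S100A8 with PA overlapped ULA day 34. The lowest mean belonged to the TGFB1 control for S100A9, SPRR1B, SPRR3 and SFN, to TGFB1 for S100A8 and SCEL, to both at 0 UMIs for S100A7, and to ULA day 21 for S100A2, S100A14 and SPRR1A.

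Of the 9 members that passed the filter on low counts in each fit, 8 had both day 34 libraries above all 3 day 21 libraries, where 31.5% of the 22261 genes tested did, and 0 lay wholly below, where 19.4% did. With TGFB1, 4 lay above their control libraries (23.7% of 19366 genes tested) and 3 below (42.0%). Of the 4 above, S100A9 had 3 UMIs and SPRR1B 0 in TGFB1 control replicate 1. S100A8, 1 of the 3 below, had 3 UMIs in each control library and 0 in each TGFB1 library, which is at or under the floor of 3 UMIs, so no direction is read for it. With PA, 4 lay above (8.38%) and 0 below (14.6%). With OA, 3 lay above (26.9%) and 1, S100A2, below (54.5%). The members were chosen on these contrasts, so nothing is read from these counts. The scaling moves such differences: TMM moved the median log2 fold change of genes above 1 CPM in both groups by 0.34 relative to plain CPM in OA, by 0.20 with TGFB1, by -0.13 in ULA and by 0.06 with PA.

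Clusters were built per experiment without the members or the list genes, and were named only from fixed markers. In ULA organoids the 2 squamous-like clusters (number 8, led by KRT13 and KRT5, and number 13, led by MGP, INHBA and KRT13) held 38.7% of the cells of day 34 replicate 2, 0.485% of day 34 replicate 1 and at most 0.0476% of any day 21 library. That class was therefore almost entirely 1 library. In day 34 replicate 2 those cells carried 74.6% of S100A8 UMIs, 68.8% of S100A2, 62.7% of SFN, 60.7% of S100A9 and 60.5% of SPRR1B. Cluster 14, led by CXCL14 and FABP7, stayed unnamed because its first 10 genes held 1 squamous marker (KRT15) and 1 mesenchymal marker (TAGLN), although its first 50 held 5 squamous markers. In day 34 replicate 2 its 1471 cells (11.8% of that library) had 397 CPM of S100A2 and 432 CPM of SFN. In the same library SPRR3 and SCEL lay mostly outside the 2 squamous-like clusters, which held 28.8% and 20.3% of their UMIs. Both genes were highest in unnamed cluster 12, led by SPP1, IGFL2-AS1, SPRR2F and CLIC3 and holding 14.2% of that library. SPRR3 was at 209 CPM there and SCEL at 119 CPM, against 45.5 and 14.7 CPM in squamous-like cluster 8.

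Day 34 replicate 1 reached its high S100A9 through other cells. Unnamed cluster 10, led by EGLN3, SLC2A1 and ADM with KRT6A among its leading genes, held 40.6% of that library and at most 0.0562% of any other, and its S100A9 level there was 1538 CPM, with 68.0 CPM of SPRR3, 64.6 CPM of S100A2 and 53.7 CPM of SCEL. On day 21 S100A9 was highest in the amnion or surface ectoderm-like cluster 2 (led by VTCN1 and GABRP), at 216, 146 and 170 CPM in the 3 replicates, while S100A2 there was at 2.19, 3.16 and 2.16 CPM. That cluster held 17.5% to 25.8% of day 21 cells and 0.301% and 1.27% of day 34 cells. S100A9 on day 21 was thus present without the S100A2, S100A8, SPRR and SCEL levels of day 34.

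**Figure D2:**
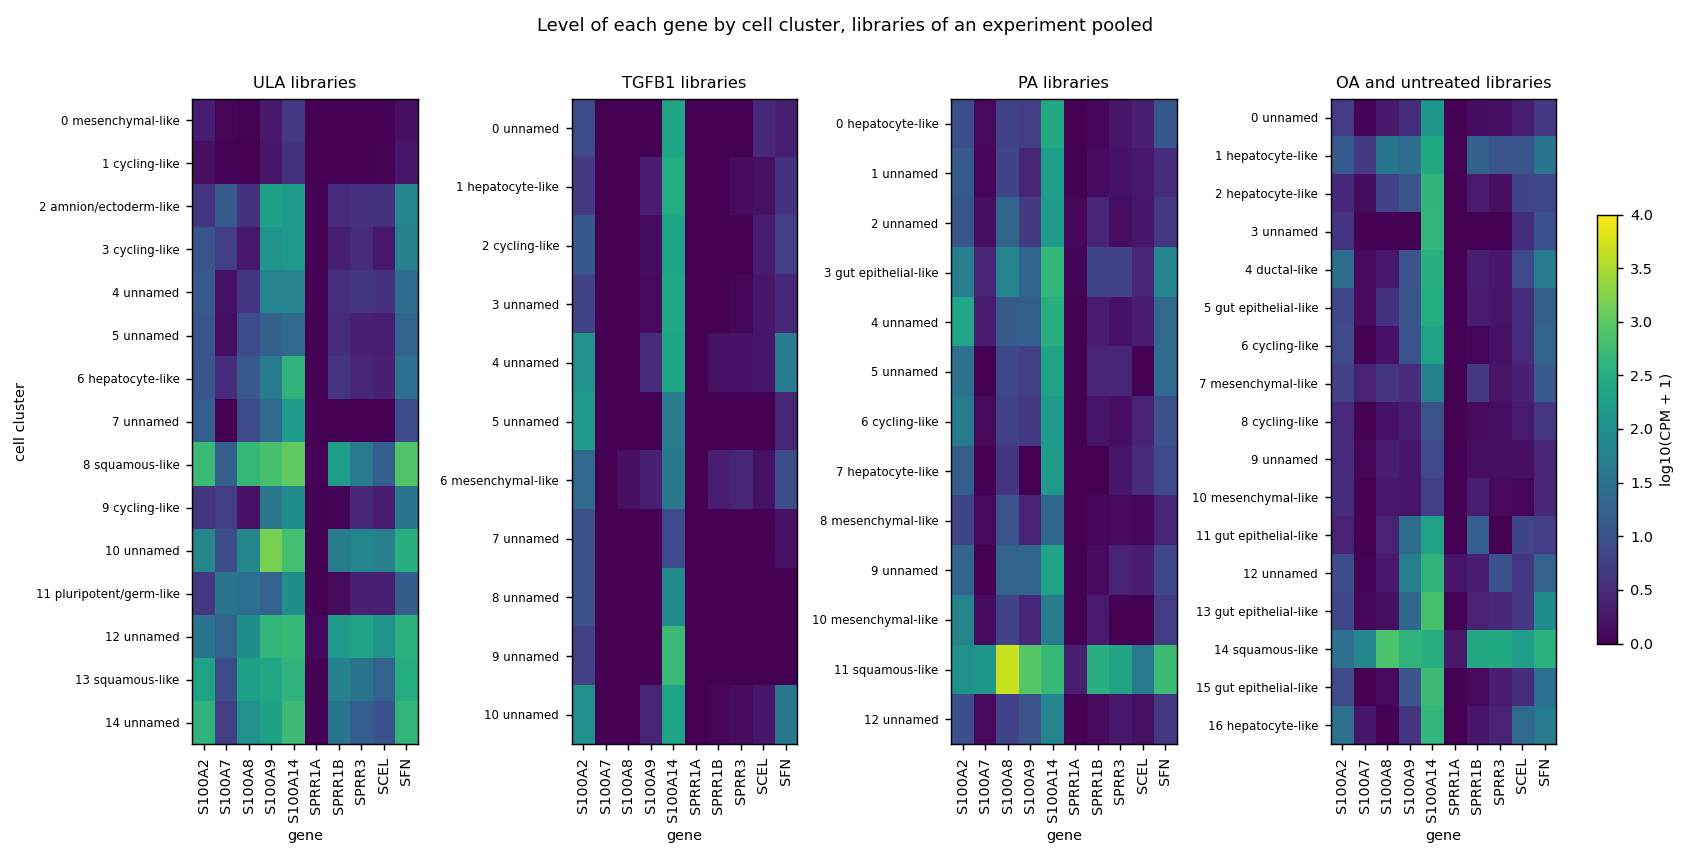
Level of each gene in every cell cluster as log10(CPM + 1), with libraries of an experiment pooled, 1 column per gene and 1 row per cluster. The squamous-like rows of the PA and OA panels are bright for nearly all genes, S100A14 is present in many other rows, and the TGFB1 panel shows S100A2 and SFN in cluster 4 without S100A8 or the SPRR genes.

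In the PA experiment 1 squamous-like cluster (number 11) held 2.56% and 3.00% of control cells and 2.58% and 5.48% of PA cells. It carried 92.4% to 96.7% of S100A8 UMIs, 89.5% to 94.2% of SPRR1B UMIs and 77.7% to 91.5% of S100A9 UMIs in each of the 4 libraries. S100A8 within it was at 1953 and 2382 CPM in the control and at 5960 and 5527 CPM with PA, so the PA libraries were above the control inside the cluster as well as in the sums. For S100A9 the PA libraries held 1749 and 878 CPM there against 641 and 584 CPM, and for SPRR1B 190 and 418 CPM against 312 and 267 CPM, which overlap. Outside the cluster S100A8 stood at 2.23 and 3.19 CPM in the control and at 6.46 and 28.0 CPM with PA. S100A9 stood there at 1.49 and 3.88 CPM in the control and at 12.7 and 11.8 CPM with PA. For both genes the PA libraries thus lay above the control outside the cluster too. Mesenchymal-like clusters 8 and 10, which should lack S100A8, held 9.71 and 5.54 CPM of it in the pooled libraries. Their S100A9 was at 1.41 and 1.85 CPM. The part of RNA released from other cells in the levels outside the squamous-like cluster was not tested.

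Most S100A2 UMIs of the PA experiment lay outside the squamous-like cells, although its level was higher inside them in all 4 libraries: 102 and 88.4 CPM inside against 43.0 and 61.1 CPM outside in the control, and 210 and 88.4 CPM against 30.5 and 67.3 CPM with PA. Cluster 11 held 5.36% to 14.8% of its UMIs, while unnamed cluster 4 (led by MMP12, MMP7 and TNC) held 68.1% of them in the pooled libraries, at 249 and 222 CPM in the control and 150 and 251 CPM with PA. S100A14 was also higher inside cluster 11 (294, 468, 644 and 448 CPM in control 1, control 2, PA 1 and PA 2) than outside it (178, 209, 244 and 239 CPM), with 3.93% to 10.3% of its UMIs there.

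In the OA and untreated libraries the squamous-like cluster (number 14) held 9.80% and 5.47% of untreated, 7.07% and 8.76% of OA control and 5.34% and 3.23% of OA cells. Its 50 leading genes hold 4 squamous markers, all among the first 10, and 5 amnion or surface ectoderm markers, of which GABRP is among the first 10, so its name rests on the first 10. It carried 83.1% to 98.9% of S100A8 UMIs over the 6 libraries. Its level inside was 440 and 986 CPM in the OA control and 2357 and 146 CPM with OA, so the 2 OA libraries lay on either side of their controls. S100A9 inside was at 314 and 454 CPM in the control and at 1054 and 939 CPM with OA, and S100A7 at 13.2 and 29.5 CPM against 134 and 341 CPM. For these 2 genes both OA libraries lay above both control libraries within the cluster. SPRR1B (339 and 310 CPM against 538 and 41.6 CPM) and SCEL (144 and 143 CPM against 232 and 35.5 CPM) did not separate. OA replicate 2, with 104 cells in the cluster, was lowest in both. Outside the cluster S100A9 also lay above the control, at 29.5 and 26.1 CPM with OA against 7.12 and 10.8 CPM. The cluster held 57.7% and 40.9% of S100A9 UMIs with OA and 69.5% and 82.0% in the control. S100A7 overlapped outside it, at 0.154 and 0.137 CPM with OA against 0.301 and 0.0210 CPM.

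Most S100A14 and SFN of the OA libraries came from elsewhere. Only 2.85% and 0.284% of S100A14 UMIs and 16.2% and 3.87% of SFN UMIs lay in the squamous-like cluster with OA, against 6.21% and 24.9% and 55.0% and 79.5% in the control. Gut epithelial-like cluster 13, led by APOA4, FABP2 and FABP6, held 52.7% and 39.9% of OA cells and 0.623% and 0.614% of control cells. There S100A14 was at 661 and 702 CPM and SFN at 89.1 and 102 CPM with OA. Outside the squamous-like cluster SFN was at 72.2 and 70.3 CPM with OA and at 15.9 and 15.2 CPM in the control.

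**Figure D3:**
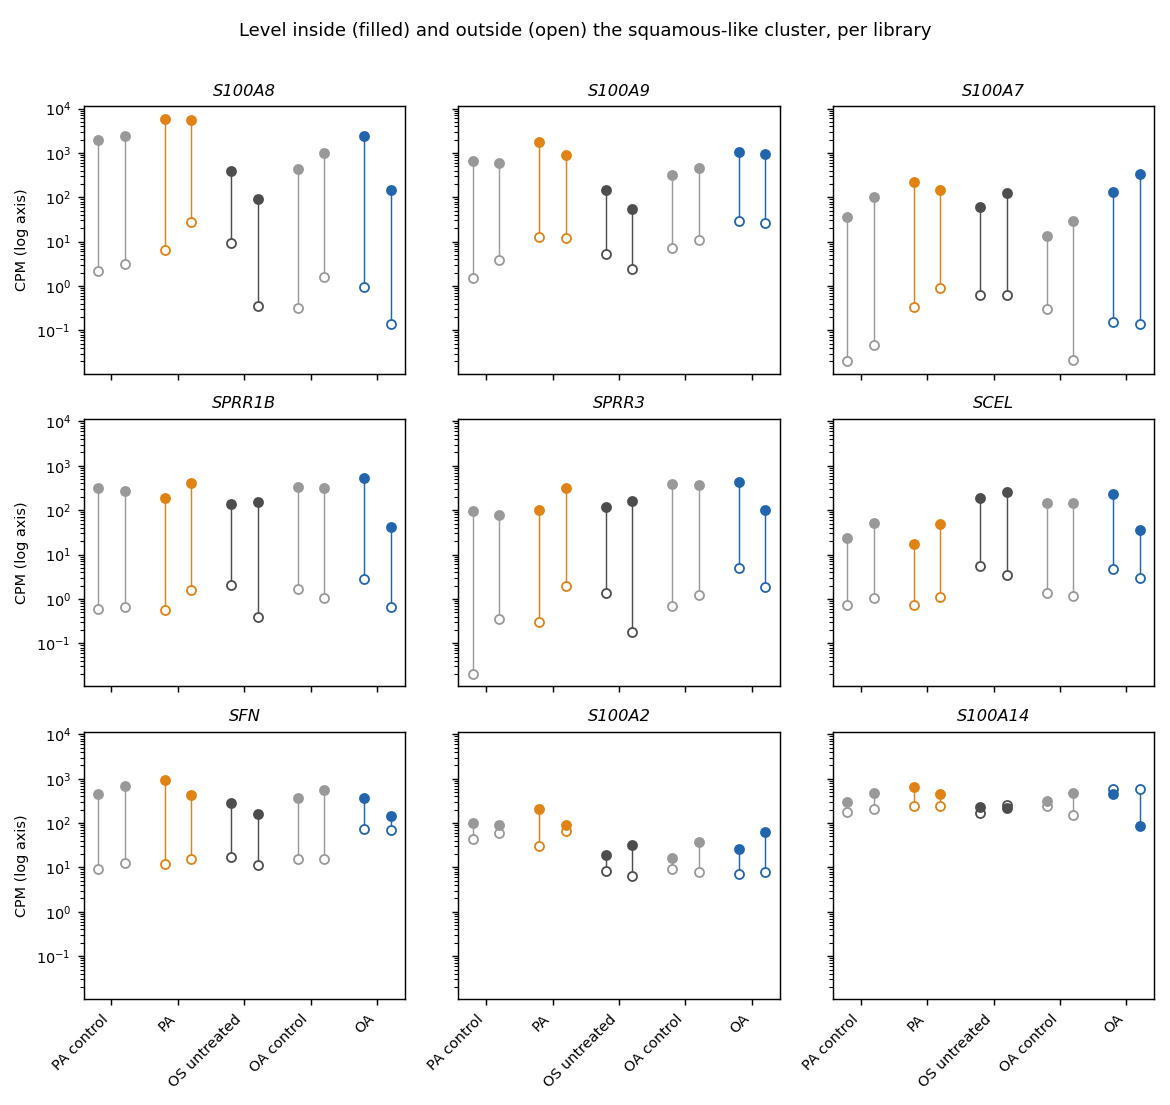
Level of 9 genes inside (filled) and outside (open) the squamous-like cluster, 1 joined pair per library, in CPM on a log axis; 2 values of 0 outside (S100A7 and SPRR3 in PA control replicate 1) are drawn at the bottom of the axis range. S100A8 lies far higher inside in each library shown, whereas S100A14 is lower inside in both OA libraries and in untreated replicate 2.

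No cluster of the TGFB1 experiment was squamous-like. S100A2 and SFN lay mainly in unnamed cluster 4 (led by KRT7 and MMP7), with 82.7% and 84.6% of their UMIs. That cluster held 0.291% and 3.05% of control cells and 66.3% and 80.2% of TGFB1 cells. S100A2 was at 110 and 121 CPM there with TGFB1 and at 27.2 CPM in control replicate 2, and SFN at 51.3 and 39.2 CPM against 18.1 CPM, so both were also higher within the cluster than in that control library. Control replicate 1 held only 28 cells of the cluster and gives no value.

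Few cells held many members at once. At least 5 of the 10 genes had a UMI in 7.54% and 12.8% of day 34 cells and in 0.225% to 0.429% of day 21 cells. PA libraries had shares of 0.522% and 2.33% against 0.218% and 1.03% in their controls, OA libraries 4.34% and 1.30% against 1.47% and 3.62%, and no library of the TGFB1 experiment exceeded 0.05%. These shares move with depth, since the median UMI count per cell ran from 1310 in TGFB1 control replicate 1 to 14304 in ULA day 34 replicate 1. Of the cells with a UMI of S100A8, 70.8% and 64.7% also had S100A9 on day 34, where 19.4% and 26.2% of all cells did. With PA the shares were 45.2% and 35.2%, against 2.95% and 6.13% of all cells.

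After each cell was thinned to 1000 UMIs, 33.9% and 36.8% of squamous-like PA cells had a UMI of S100A8 (183 and 437 cells kept), against 15.8% and 27.7% in the control (76 and 166 cells kept). Unthinned, the shares were 38.4% and 49.8% against 15.9% and 41.3%, at median depths of 2300 and 6654 UMIs with PA and 1620 and 8552 UMIs in the control. In mesenchymal-like cells, which should lack the gene, the thinned shares were 0.872% and 0.443% with PA and 0 and 0.562% in the control, at median depths of 2032, 4937, 1437 and 5168 UMIs. The squamous-like shares were above the mesenchymal-like ones in all 4 libraries.

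Myeloid cells are another source of calprotectin, so their markers were read in the same squamous-like cells. Marker levels were not read in other cells. Those include unnamed ULA cluster 10, which held 49.8% of the S100A9 UMIs of the pooled ULA libraries. CD14, CD163 and MPO were at 0 in the squamous-like cells in all 11 libraries with at least 50 of them, TYROBP was at 0 in 10 and at 0.0294 CPM in ULA day 34 replicate 2, and PTPRC did not exceed 0.585 CPM. CD68 had UMIs in all 11, at 0.0588 to 5.99 CPM, the highest from 1 UMI in PA control replicate 1. CSF3R reached 6.71 CPM, AIF1 2.00 CPM, FCER1G 0.893 CPM, and ITGAM and FCN1 0.365 CPM each. LYZ, which gut epithelium also makes, was at 3.56 to 103 CPM. KRT5 in the same cells was at 60.9 to 2047 CPM and KRT6A at 243 to 1636 CPM, with the lowest KRT5 in OA replicate 2.

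The non-member genes whose level over the 19 libraries was most like the mean of the members were DSG3 (Pearson r of 0.91), KRT6A (0.90), TRIM29 (0.87), KRT5 (0.87), HES2 (0.86), CLIC3 (0.86), NPY (0.86), KRT13 (0.85), IGFL2-AS1 (0.85) and TUBA4A (0.84). The measure was the correlation of log2(CPM + 1) with the mean standardised log2(CPM + 1) of the 10 members, among genes reaching 10 CPM, and is a description over libraries that share 9 groups. DSG3 is a desmosomal cadherin of stratified epithelia, and KRT5, KRT6A and KRT13 are squamous keratins. KRT5 averaged 2.94 CPM on day 21 and 513 CPM on day 34, KRT6A 0.662 and 224 CPM, and KRT13 0.260 and 308 CPM. In OS groups KRT6A was highest in the OA control, at 101 CPM, and was listed at 0 in the TGFB1 control.

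Genes outside the set were tested with edgeR's quasi-likelihood test on summed counts, with Benjamini-Hochberg adjustment over all genes tested and a threshold of 0.05, and those that passed are called. The lists of related genes were drawn up with earlier results of these data known, so they describe and are no independent evidence. In ULA 8.43% of the 22261 genes tested were called higher on day 34 and 7.19% lower, around a median log2 fold change of 0.01. The 3476 genes called became 773, 1430 or 697 without day 21 replicate 1, 2 or 3, and 7166 without day 34 replicate 2, so the ULA counts rest on single libraries.

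Of 28 other cornified envelope proteins, 13 passed the filter in ULA, 8 were called higher on day 34 and 0 lower, and the median log2 fold change was 2.90. SPRR2D had 4 UMIs in the 3 day 21 libraries and 530 in the 2 day 34 libraries, with a log2 fold change equal to 7.28 (standard error 0.648; edgeR adjusted p = 0.0016). IVL (involucrin, an early envelope protein) had 6 and 691 UMIs, with a log2 fold change equal to 7.07 (standard error 1.09; edgeR adjusted p = 0.0083), lost without day 21 replicate 1 or 3. FLG, a filaggrin gene of late epidermal differentiation, did not pass the filter. The count of called genes fell to 4 or rose to 10 when 1 library was left out.

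Desmosome genes, which hold squamous cells together, were mostly higher on day 34: 9 of 12 were called higher (5 to 9 with 1 library left out) and 1 lower, with a median of 1.42. DSG1 had 2 UMIs on day 21 and 1057 on day 34, and PKP1 had 5 and 909 (edgeR adjusted p = 4.6e-04 and 0.0020). Both stayed called without any 1 library. PKP2, the plakophilin of simple epithelia and heart, was lower, at -0.94 (SE 0.235, edgeR adjusted p = 0.037), and it lost its call without day 21 replicate 1 or 3.

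Of 17 squamous proteases and serpins 14 passed the filter, 8 were called higher (3 to 10 with 1 library left out) and 1 lower, with a median of 2.64. SERPINB2 went from 0.144 ± 0.0543 CPM (SD, n = 3) to 9.23 ± 4.15 CPM (SD, n = 2), a log2 fold change equal to 5.85 (standard error 0.429; edgeR adjusted p = 0.0010). SERPINB13 had a log2 fold change equal to 5.59 (standard error 1.02; edgeR adjusted p = 0.014), lost without any 1 day 21 library, and the protease KLK6 was called lower (log2 fold change -1.39, edgeR adjusted p = 0.033), also lost without any 1 of those.

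Of 10 transglutaminases and lipid barrier enzymes 5 passed the filter and 2 were called higher (1 to 3 with 1 library left out), with a median of 1.83. They were the lipid transporter ABCA12 (log2 fold change 2.83, edgeR adjusted p = 0.0015) and the ceramide synthase CERS3 (3.99, edgeR adjusted p = 0.0099, lost without day 21 replicate 1 or 3). Among 18 squamous transcription factors 7 were called higher (3 to 8 with 1 library left out) and 1 lower, with a median of 0.18. ZNF750 rose from 1.48 ± 0.455 (SD, n = 3) to 18.6 ± 10.1 CPM (SD, n = 2) (edgeR adjusted p = 0.0031), while PITX1 fell from 22.3 ± 3.75 to 7.67 ± 0.597 CPM (edgeR adjusted p = 0.0039). Both kept their call without any 1 library.

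The rest of the S100 family was called in both directions. Of 15 other S100 genes 13 passed the filter in ULA, 3 were called higher (0 to 7 with 1 library left out) and 2 lower, with a median of 0.89. S100A3 had a log2 fold change of 2.20 (edgeR adjusted p = 0.011) and S100A5 of 2.20 (edgeR adjusted p = 0.032), the first lost without day 21 replicate 1 or 3 and the second in 4 of 5 fits without 1 library. S100P, an S100 gene of gut and placental epithelium, went the other way, from 98.9 ± 26.2 (SD, n = 3) to 8.10 ± 2.07 CPM (SD, n = 2), a log2 fold change equal to -3.74 (standard error 0.314; edgeR adjusted p = 0.0015) that kept its call without any 1 library. S100Z was called lower at -2.01 (edgeR adjusted p = 0.018), lost without any 1 day 21 library.

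Of 7 S100 binding partners and receptors, ANXA1 was called higher (1.44, edgeR adjusted p = 0.014) and TLR4 lower (-0.98, edgeR adjusted p = 0.033), both lost without any 1 day 21 library. No other 14-3-3 gene (0 of 6) and no p53 target (0 of 10) was called by edgeR, and YWHAE and CDKN1A had the largest values at -0.56 and 1.15. At an unadjusted p under 0.05, 2 of the 6 and 2 of the 10 passed. With each replicate left out in turn, 0 to 1 of the 6 were called higher and 0 to 2 lower, and of the 10, 0 to 3 higher and 0 to 1 lower.

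In ULA the markers of other cell types moved with these genes. The 14 squamous markers summed to 301 to 398 CPM on day 21, when 13 or 14 were detected and KRT1 was at 0 in 1 library, and to 2446 and 5186 CPM on day 34. All 12 hepatocyte markers were detected in each library, and their sum went from 2441 to 2863 CPM on day 21 to 98.9 and 856 CPM on day 34. The 11 gut epithelial markers summed to 303 to 484 CPM and then to 5.65 and 59.3 CPM, with KRT20 at 0 in day 34 replicate 1. Their part in the differences was not tested. Culture day and the longer trypsin step cannot be told apart.

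With TGFB1, 10.9% of the 19366 genes tested were called higher and 11.3% lower, around a median of -0.05. S100A3 rose from 5.96 ± 3.33 to 51 ± 1.46 CPM (SD, n = 2 each), a log2 fold change equal to 3.21 (standard error 0.412; edgeR adjusted p = 1.3e-04), and S100A4, an S100 protein of motile and mesenchymal cells, from 250 ± 25.1 to 911 ± 191 CPM, 2.06 (SE 0.375, edgeR adjusted p = 0.0018). In all 5 of the 15 other S100 genes were called higher and 2 lower (S100B at -2.32, lost without TGFB1 replicate 2, and S100P at -1.90, lost in 3 of 4 fits without 1 library), with a median of 0.98, or 1.4 without 2 genes at 3 UMIs or fewer in both groups. The binding partners ANXA2 (2.09, edgeR adjusted p = 8.9e-04) and ANXA6 (1.29, edgeR adjusted p = 0.0061) were called higher, 2 of 7 in that list.

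Of 15 other envelope genes that passed the filter with TGFB1, 1 was called higher and 2 lower, with a median of 0.00, or 0.32 without 3 genes at 3 UMIs or fewer in both groups and with 2 others at their bound. LORICRIN had 2 and 30 UMIs and lost its call in each of the 4 fits without 1 library, as did EVPL, and PPL, a plakin that joins envelope to desmosome, had a log2 fold change of -0.59 (edgeR adjusted p = 0.030, lost in 2 of 4 such fits). The lipid enzyme SPTLC3 was called lower (-2.26, edgeR adjusted p = 1.0e-05), the 1 call among 6 of the barrier enzymes, whose median was 0.17, or -0.72 without 1 gene at 3 UMIs or fewer in both groups, so that its sign rests on that gene. The protease KLK6 was called higher (4.27, edgeR adjusted p = 1.3e-04) and the inhibitor SPINK5 lower (-1.75, edgeR adjusted p = 0.0035), the only calls among 14 proteases and serpins tested.

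TP63, the master transcription factor of stratified epithelium, rose from 0.340 ± 0.0334 to 11.5 ± 0.551 CPM with TGFB1 (SD, n = 2 each), a log2 fold change equal to 5.2 (standard error 0.614; edgeR adjusted p = 7.1e-05), and GRHL3 from 0.390 ± 0.254 to 3.32 ± 0.102 CPM (3.51, edgeR adjusted p = 2.3e-04). KLF5 (-1.83, edgeR adjusted p = 6.3e-04) and GRHL1 (-1.5, edgeR adjusted p = 7.3e-04) were called lower. In that list 5 of 18 were called higher (3 to 5 with 1 library left out) and 4 lower (2 to 4, fewest calls without TGFB1 replicate 1), with a median of -0.45, and the 4 genes named kept their call without any 1 library. TP63 and S100A2, a known target of its protein, were both higher with TGFB1, and a link between them was not tested.

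Desmosome genes with TGFB1 gave 4 of 12 called higher and 0 lower, with a median of 1.07 (1.22 without 1 gene at 3 UMIs or fewer), led by DSP (436 ± 3.85 to 1161 ± 37.7 CPM, SD, n = 2 each, edgeR adjusted p = 1.3e-04) and PERP (1.35, edgeR adjusted p = 0.0051, lost without TGFB1 control replicate 1). Of the other 14-3-3 genes 3 of 6 were called higher (0 to 4 with 1 library left out, 0 without TGFB1 replicate 1), with YWHAZ at 0.96 (edgeR adjusted p = 0.0055, lost without TGFB1 replicate 1) and YWHAH at 0.81 (edgeR adjusted p = 0.048, lost in 3 of 4 fits without 1 library). Of the p53 targets 3 of 10 were called higher (1 to 4 with 1 library left out, fewest without TGFB1 control replicate 1), with CDKN1A at 1.67 (edgeR adjusted p = 8.6e-04) and TP53I3 at 1.16 (edgeR adjusted p = 0.030, lost in 3 of 4 fits). The 11 mesenchymal markers, all detected in each library, summed to 1270 and 2103 CPM in the control and to 7763 and 7050 CPM with TGFB1, and the 14 squamous markers to 314 and 300 CPM and to 397 and 366 CPM. KRT1 was at 0 in all 4 libraries. Their part in the differences was not tested.

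With PA edgeR called 0.0465% of the genes tested higher (9 genes) and 0% lower, and no gene of any of the 9 lists. DESeq2 called 54 in all, and 540 passed an unadjusted p under 0.05 by edgeR. In its list of 28 envelope proteins 15 passed the filter, with a median of 0.71 against 0.02 over all genes, and KRTDAP, a keratinocyte differentiation protein, had the largest value (57.3 ± 64.8 against 4.18 ± 2.21 CPM, SD, n = 2 each, log2 fold change 3.75, SE 1.23, edgeR adjusted p = 1.0). Medians were 0.49 for the other S100 genes, 0.75 for proteases and serpins, 0.03 for desmosome genes and 0.20 for transcription factors. In those lists the largest single values were S100G at 2.26, SERPINB4 (0.137 CPM with PA and listed at 0 in the control), DSC1 at 0.98 and CEBPB at 1.13, none of them called. A missed threshold with 2 libraries a group does not show that these genes did not differ.

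With OA 21.7% of the genes tested were called higher and 21.6% lower, around a median of -0.08. S100P rose from 68.9 ± 25.8 to 758 ± 97.4 CPM (SD, n = 2 each), a log2 fold change equal to 3.77 (standard error 0.488; edgeR adjusted p = 6.1e-05), and S100G, a calcium-binding protein of intestine, from 0.367 ± 0.264 to 5.42 ± 4.13 CPM (4.26, edgeR adjusted p = 4.8e-04). S100A1 (-2.55, edgeR adjusted p = 1.1e-04) and S100B (-2.40, edgeR adjusted p = 0.014, lost without either OA library) were called lower. Of 15 other S100 genes 6 were called higher (2 to 5 with 1 library left out, fewest without OA control replicate 2) and 2 lower, with a median of 0.56. Of the partners and receptors 2 of 7 were called higher and 2 lower (1 to 2 each with 1 library left out): the fatty acid receptor CD36 (0.337 ± 0.197 to 14.8 ± 0.832 CPM, SD, n = 2 each, edgeR adjusted p = 3.6e-06) and TLR4 (1.77, edgeR adjusted p = 0.0054, lost without OA control replicate 2) rose, and ANXA6 (-2.39, edgeR adjusted p = 4.2e-05) and the receptor AGER (-1.32, edgeR adjusted p = 0.017, lost in 3 of 4 fits without 1 library) fell.

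Envelope genes with OA gave 3 of 15 called higher and 1 lower, with a median of 0.52. Of all genes tested with OA, 21.7% were called higher and 21.6% lower. PI3 (elafin, a protease inhibitor of barrier epithelia) rose from 1.85 ± 0.539 to 27.5 ± 0.463 CPM (SD, n = 2 each, log2 fold change 4.22, SE 0.379, edgeR adjusted p = 4.8e-06), SPRR2E had a log2 fold change of 4.06 (edgeR adjusted p = 0.0031), and CNFN fell by 1.18 on the log2 scale (edgeR adjusted p = 0.0035). In the protease and serpin list 3 of 14 were called higher and 1 lower (0 to 3 with 1 library left out), with a median of -0.12, including SLPI (3.24, edgeR adjusted p = 5.9e-05), SPINK5 (2.67, edgeR adjusted p = 7.9e-05) and KLK6 (-1.46, edgeR adjusted p = 0.021, lost without OA control replicate 2 or OA replicate 2). Among barrier enzymes ALOXE3 (2.55, lost without OA control replicate 2 or OA replicate 1) was called higher and ELOVL4 (-3.41) lower, 1 of 6 each.

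Of the squamous transcription factors 11 of 18 were called higher with OA and 1 lower, with a median of 1.04, led by EHF (20.3 ± 0.523 to 64.5 ± 1.56 CPM, SD, n = 2 each, edgeR adjusted p = 6.8e-05) and KLF4 (1.69, edgeR adjusted p = 0.0083, lost without OA control replicate 2). EHF and KLF4 are also made by gut epithelium. The count fell to between 4 and 10 without 1 library. Desmosome genes gave 4 of 12 higher and 0 lower (median 0.48), but 2 higher and 0 to 3 lower when any 1 library was left out, with DSG2 at 1.68 (edgeR adjusted p = 3.1e-05) and DSC2 at 1.57 (edgeR adjusted p = 3.5e-05), which simple epithelia also make. Other 14-3-3 genes gave 5 of 6 higher, with a median of 0.76, but 1 of 6 when any 1 library was left out, and YWHAZ (1.43, edgeR adjusted p = 1.6e-04) was the one that kept its call in every such fit. CDKN1A (1.58, edgeR adjusted p = 4.9e-04) and BBC3 (0.61, lost in each fit without 1 library) were the 2 p53 targets of 10 called higher, and ZMAT3 and SESN1 (lost without OA control replicate 1) the 2 called lower.

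In the OA experiment the 11 gut epithelial markers, all detected in each library, summed to 3195 and 1710 CPM in the control and to 17735 and 14091 CPM with OA. The 11 mesenchymal markers summed to 4280 and 6892 CPM and to 381 and 314 CPM, and the 14 squamous markers to 485 and 1041 CPM and to 463 and 303 CPM, with KRT14 and KRT1 at 0 in OA replicate 2. Their part in the list counts was not tested. Of the members that passed the filter and whose OA libraries lay above the control, the OA libraries lay above the control libraries outside the squamous-like cluster for S100A14 and SFN, and inside it for S100A7. SPRR1A, which did not pass, also lay above, with 15 and 10 UMIs against 4 and 2.

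**Figure D4:**
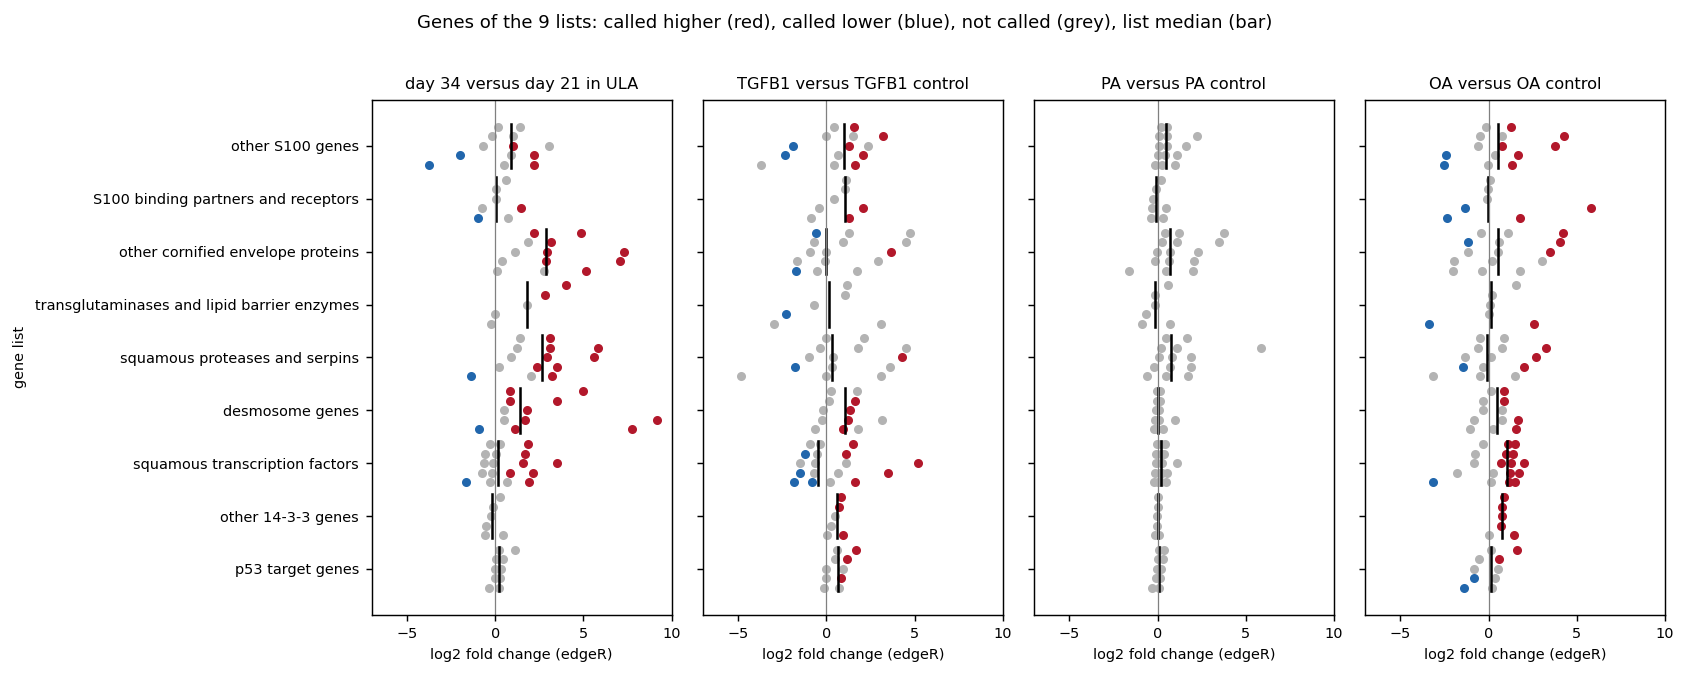
Log2 fold change of each gene of the 9 lists that passed the filter, in the 4 comparisons, by edgeR; red points were called higher, blue lower and grey not called, and the black bar is the list's median. Envelope, protease and desmosome points lie mostly to the right on ULA day 34, transcription factors and 14-3-3 genes lie to the right with OA, and the PA panel holds no called gene.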

How the data were processed

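Single-cell RNA was measured in 19 libraries with 10x 3′ v3 chemistry. The deposited matrices hold raw counts of UMIs for each gene in each barcode, made by the authors with bcl2fastq and Cell Ranger 3.0.2 on GRCh38, per the submitters' processing notes; the file headers of the OA and untreated matrices name Cell Ranger 6.0.2. The software and gene lists differ between experiments (58721 genes listed for ULA, 33538 for TGFB1 and PA, 36601 for OA and untreated), so tests were made only within them; group orders and the pattern measure run across them, as descriptions.

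The cell filter was a minimum of 500 genes and a mitochondrial share up to 20%, doublets stayed in, and counts of kept cells were summed per library. edgeR 4.0.16 (R 4.3.3) ran the quasi-likelihood test with TMM scaling and Benjamini-Hochberg adjustment: 1 fit for ULA, and 1 fit over the 14 OS libraries, which share 1 estimate of the spread. Clusters were made with Scanpy 1.11.5 (2000 variable genes, 30 principal components, 15 neighbours, Leiden resolution 0.5) without the 10 genes or the list genes. A cluster was named only with at least 3 fixed markers among its 50 leading genes.

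The members and lists were chosen with earlier results of these data known. Named genes are the 10 members, the called genes of each list with the 2 highest and 2 lowest fold changes per comparison (the largest value where a list has no call), the 10 non-members most like the members in pattern, and defining markers. FLG was named in addition. A gene that the rule names among the transcription factors is not reported here. Alternatives were DESeq2 1.42.0, no filter on low counts, stricter cells (1000 genes, 10% mitochondrial), doublets removed, each library left out, a replicate block, the 4 compared libraries alone, a Leiden resolution of 1.0 and thinning to 2000 UMIs. Intervals between replicates rest on 2 or 3 libraries a group, and p-values measure only the spread between these libraries.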

Additional observations from a re-analysis of the deposited data

How the results depend on the processing

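Of the members' log2 fold changes under alternatives, 254 stayed within the spread and 38 were counted as moved, with or without a change of sign. The 38 include all 8 of S100A7 with TGFB1, which stayed at 0.00. Its libraries there all held 0 UMIs, so its spread was 0 and no value could lie within it. In 5 others the sign changed where the groups did not overlap. S100A14 with TGFB1, at -0.13, was at 0.01 with stricter cells, at 0.11 without TGFB1 control replicate 2 and at 0.01 without TGFB1 replicate 2, and ran from -0.33 to 0.11 over the fits without 1 library. S100A2 with OA, at 0.04, was at -0.13 with stricter cells and -0.03 without OA replicate 2. The cause was not tested. Sign also changed under at least 1 alternative for 8 folds whose groups overlap: S100A8 with OA (-3.99 to 1.32), SPRR1B with OA (-3.78 to 0.24) and PA (-0.81 to 1.49), SCEL with OA (-1.34 to 0.52) and PA (-0.97 to 1.00), S100A2 with PA (-0.55 to 0.43), SPRR3 with TGFB1 (-0.26 to 3.21) and S100A7 in ULA (-0.11 to 1.59).

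Genes called numbered 3476 in ULA, with 697 to 7166 when 1 library was left out. They numbered 4295 with TGFB1 (1704 to 5554) and 8378 with OA (5171 to 6570). With PA there were 9 (0 to 20), 54 with DESeq2, 162 with no low-count filter and 16 with only the 4 libraries compared; the 0 counts came without either PA control library, when 514 and 688 genes passed an unadjusted p under 0.05.

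Whether replicate numbers pair the samples is not stated in the labels. Deviations of same-numbered libraries correlated at -0.17 and -0.27 in ULA, -0.29 with TGFB1, 0.10 with PA and 0.03 with OA. In groups of 2 libraries the deviations mirror each other, so each OS comparison gives a single value, which cannot settle the question. With the replicate block edgeR called 0 genes in ULA (4272 at an unadjusted p under 0.05), 3144 with TGFB1, 4 with PA and 7244 with OA. A crossed replicate block, added after seeing the data, gave 4155 with TGFB1.

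Depth limits SPRR1A, S100A7 in the TGFB1 experiment and shares of cells, of which 119 of 190 moved when cells were thinned to 2000 UMIs.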
